A study of Mus musculus with 6 samples.

Results

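The genes described here are the C/EBP factors Cebpa, Cebpb, Cebpd and Cebpg, which are 4 of the 21240 genes counted in NMuMG cells, a line of mouse mammary gland epithelial cells that is widely used as a model of the epithelial to mesenchymal transition provoked by TGFβ. Their rows were found by gene symbol, and the members were chosen with earlier results of these data known. Cells of all groups were kept for 6 h without serum and insulin before treatment. They then received vehicle for 2 h, TGFβ1 at 5 ng/ml for 2 h, or TGFβ1 at 5 ng/ml for 12 h. Each group has 2 biological replicates, and the 6 libraries hold stranded total RNA of 1 unmodified cell line. The vehicle group was taken at 2 h, so in the comparison of 12 h with vehicle the effect of TGFβ and the longer time without serum cannot be told apart.

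C/EBP proteins are basic leucine zipper transcription factors, which bind DNA as dimers formed with each other or with related factors such as ATF4. C/EBPα drives differentiation and exit from the cell cycle in fat, liver and myeloid cells, and C/EBPβ is needed for the growth and milk secretion of the mammary epithelium and mediates acute-phase responses. C/EBPδ is known as a gene of inflammation and of the involuting mammary gland. C/EBPγ lacks the activation domain of the others and acts as a dimer partner, also of ATF4. Cebpb mRNA is translated into activating and shortened inhibitory proteins, which RNA counts do not distinguish.

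The levels of the C/EBP transcripts went in different directions after treatment. Cebpb rose 3.26-fold at 2 h and was still 1.64-fold above vehicle at 12 h, while Cebpa fell 12.8-fold and Cebpg 2.01-fold by 12 h. At 2 h, the time at which vehicle was taken, only Cebpb passed the test without the replicate block, and the comparison at 12 h also holds the longer time without serum. Cebpd was close to the limit of detection in every library. Cebpa, the most abundant of the 4 transcripts per length in vehicle, was below Cebpb and Cebpg at 12 h.

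Depth was 14705886 to 23786993 counts per library. Values are given in CPM, which are counts scaled to library size with TMM factors of 0.961 to 1.07. Of the 8 epithelial markers, Epcam, Cldn7 and Esrp1 were below 1 CPM in every library, and the 5 others went in both directions at 12 h. The keratin genes Krt8 and Krt18 rose (log2FC 1.63 and 1.53, edgeR, adjusted p = 0.000114 and 0.000275), and Krt19 fell from 1847 and 1666 CPM in vehicle to 420 and 490 CPM at 12 h (log2FC -1.95, adjusted p = 0.000103). Cdh1 stood at 338 to 609 CPM and was not called at 12 h (-0.07, adjusted p = 0.762), nor was Ocln (-0.52, adjusted p = 0.117), which passed with the replicate number as a block (-0.50, adjusted p = 0.00936). At 2 h Krt8 was called higher (0.68, edgeR, adjusted p = 0.00874), a call lost without vehicle replicate 2 (0.60, adjusted p = 0.0665), and Cdh1 passed with the block alone (0.42, adjusted p = 0.0111, against 0.44 and 0.159 without it). The summed markers of adipocytes were at most 0.506 CPM in every library. The 4 endothelial markers summed to 0.177 to 0.255 CPM in vehicle, 0.353 to 0.354 CPM at 2 h and 1.74 to 1.95 CPM at 12 h, mostly from Cdh5, with 1 and 2 counts in vehicle and 39 and 36 at 12 h. The 6 leukocyte markers summed to 4.36 to 6.95 CPM, nearly all from Cd68. The 6 fibroblast markers summed to 3.51 to 4.65 CPM in vehicle, 9.13 to 9.47 CPM at 2 h and 14.8 to 16.0 CPM at 12 h. Col1a1, a collagen gene, accounted for most of that difference. Pdgfrb, a growth factor receptor gene, had 0 counts in both vehicle libraries. It had 2 and 3 at 2 h, and 22 and 26 at 12 h. Pdgfra was not called at 2 h or 12 h (log2FC -0.01 and 0.09, edgeR, adjusted p = 0.985 and 0.846). Col1a2 had 11 and 0 counts in vehicle, 19 and 4 at 2 h, and 28 and 3 at 12 h. Dcn was lowest at 12 h, with 10 and 1 counts in vehicle, 11 and 2 at 2 h, and 1 and 0 at 12 h. Lum was at or below 0.0506 CPM in every library. The part of these marker differences in the results on the C/EBP genes was not tested. In such bulk RNA, fewer cells expressing a gene and less RNA per cell cannot be told apart.

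Cebpa lies on chromosome 7, at chr7:35904312-35906945 on the plus strand of NCBIM37 (mm9), and is made of 1 exon without introns. It had 120 and 90.2 CPM in the vehicle libraries, 75.6 and 45.8 CPM at 2 h, and 8.98 and 7.45 CPM at 12 h. The vehicle libraries were the highest and the 12 h libraries the lowest, and no groups overlapped. At 2 h Cebpa was 1.73-fold lower than in vehicle, with a log2FC of -0.79 ± 0.26 (SE, n = 2 per group, 95% interval -1.41 to -0.18). This did not pass the threshold of an adjusted p of 0.05 in the quasi-likelihood test of edgeR, with p-values adjusted by Benjamini and Hochberg over all tested genes (adjusted p = 0.0895). With the replicate number as a block the log2FC was -0.82 and passed (adjusted p = 0.000945). Against the vehicle library of the same number, the log2 ratio was -0.67 in replicate 1 and -0.98 in replicate 2.

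The 2 h value of Cebpa depended on the libraries used. Without 2 h replicate 1 the log2FC was -1.22 (edgeR, adjusted p = 0.00825), and without 2 h replicate 2 it was -0.48 (edgeR, adjusted p = 0.177). At 12 h the fall was much larger than the spread between replicates, with a log2FC of -3.68 ± 0.29 (SE, n = 2 per group, edgeR, adjusted p = 0.000193). Between 2 h and 12 h Cebpa fell 7.37-fold (log2FC -2.88 ± 0.28, SE, n = 2 per group, edgeR, adjusted p = 0.000856). The 206 and 145 counts left at 12 h were well above the detection limit.

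Cebpb, another gene of 1 exon, lies at chr2:167514415-167515918 on the plus strand. It had 11.2 and 9.50 CPM in vehicle, 30.8 and 36.8 CPM at 2 h, and 17.8 and 16.2 CPM at 12 h. The 2 h libraries were the highest and the 12 h libraries stood between them and vehicle, with no overlap between groups. The rise at 2 h had a log2FC of 1.70 ± 0.16 (SE, n = 2 per group, edgeR, adjusted p = 0.00147). It passed the threshold in each of the 15 alternative analyses, where it lay between 1.57 and 1.83. At 12 h the log2FC against vehicle was 0.71 ± 0.16 (SE, n = 2 per group, edgeR, adjusted p = 0.0126). That smaller change missed the threshold without vehicle replicate 2 (log2FC 0.59, adjusted p = 0.0785), without 12 h replicate 1 (0.63, adjusted p = 0.0853) and without 12 h replicate 2 (0.77, adjusted p = 0.0514). From 2 h to 12 h Cebpb fell 1.99-fold (log2FC -0.99 ± 0.16, SE, edgeR, adjusted p = 0.00447).

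Cebpg lies at chr7:35831441-35841522 on the minus strand and has 2 annotated transcripts over 4 exons. It had 105 and 116 CPM in vehicle, 94.6 and 79.9 CPM at 2 h, and 54.4 and 55.7 CPM at 12 h. The groups were ordered as for Cebpa, from vehicle down to 12 h, without overlap but over a much narrower range. At 2 h the log2FC was -0.35 ± 0.12 (SE, n = 2 per group, 95% interval -0.63 to -0.06), which did not pass (edgeR, adjusted p = 0.105). With the replicate block it was again -0.35 and passed (adjusted p = 0.0435), and without 2 h replicate 1 it was -0.49 and passed (adjusted p = 0.0366). It was -0.23 without 2 h replicate 2 (adjusted p = 0.310). At 12 h Cebpg had fallen 2.01-fold (log2FC -1.01 ± 0.12, SE, n = 2 per group, edgeR, adjusted p = 0.000869). The fall between 2 h and 12 h was 1.58-fold (log2FC -0.66 ± 0.12, SE, edgeR, adjusted p = 0.00685). It missed the threshold without 12 h replicate 1 (-0.65, adjusted p = 0.0675) and without 12 h replicate 2 (-0.69, adjusted p = 0.0584).

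Cebpd lies at chr16:15887379-15888559 on the plus strand, and the annotation used here lists it as a pseudogene. It had 21 and 10 counts in vehicle, 7 and 16 at 2 h, and 32 and 17 at 12 h, which corresponds to 0.354 to 1.39 CPM. Vehicle overlapped both other groups, and the 2 h libraries lay just below the 12 h libraries. Since it did not reach 2 CPM in any library it was not tested. When the filter on low counts was dropped, its fitted log2FC was -0.69 at 2 h (edgeR, adjusted p = 0.559) and 0.28 at 12 h (adjusted p = 0.731). From 2 h to 12 h it was 0.97 (adjusted p = 0.243). The log2 ratio of the group means ranged from -1.40 to -0.13 at 2 h when 1 library was left out, from -0.13 to 0.83 at 12 h, where its direction changed, and from 0.49 to 1.68 between 2 h and 12 h. At this depth no difference between groups was detectable for Cebpd.

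**Figure D1:**
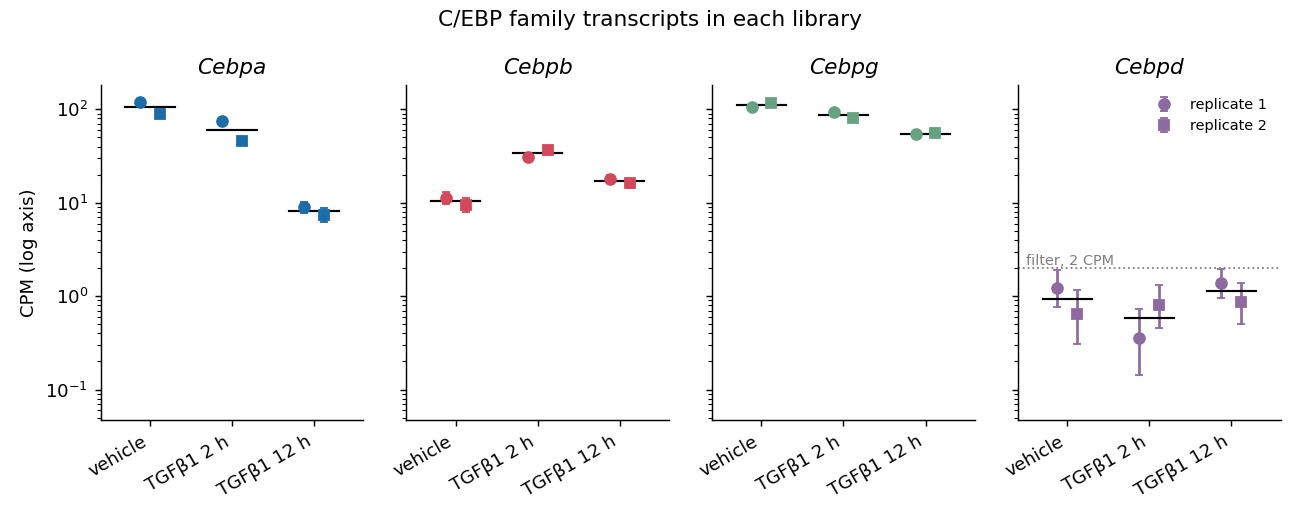
CPM of the 4 C/EBP genes in each library on a log axis, with circles for replicate 1, squares for replicate 2, horizontal lines for group means and bars for exact 95% Poisson intervals, which cover counting error only. Cebpa drops from 120 and 90.2 CPM to 8.98 and 7.45 CPM, Cebpb peaks at 2 h, Cebpg declines to 54.4 and 55.7 CPM, and Cebpd lies below the filter of 2 CPM throughout.

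Thus 3 of the 4 members passed the filter and were tested among 11080 genes. At 2 h 1 member was called higher than vehicle, where 9.91% of all tested genes were called higher, and 0 were called lower, where 5.25% of all tested genes were. With the replicate block 3 members were called at 2 h, Cebpb higher and Cebpa and Cebpg lower, and the shares of all tested genes called also grew, to 16.4% higher and 12.7% lower. At 12 h 1 member was called higher and 2 lower, beside 21.8% and 21.5% of all tested genes. Between 2 h and 12 h 3 members were called lower and 0 higher, beside 18.9% and 15.2% of all tested genes. When 1 library was left out, the shares of all tested genes called ranged from 4.49% to 11.3% higher and 1.14% to 8.61% lower at 2 h, from 11.6% to 24.5% and 13.5% to 25.2% at 12 h, and from 5.34% to 15.4% and 9.09% to 19.2% between 2 h and 12 h. Both comparisons with vehicle share the same vehicle libraries. Without TMM factors the median log2FC of all tested genes moved to -0.12 at 2 h and -0.11 at 12 h, and the genes called higher and lower went from 1098 and 582 to 854 and 975 at 2 h and from 2414 and 2385 to 1830 and 3047 at 12 h. Under that scaling the 3 tested members kept their directions in all comparisons.

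**Figure D2:**
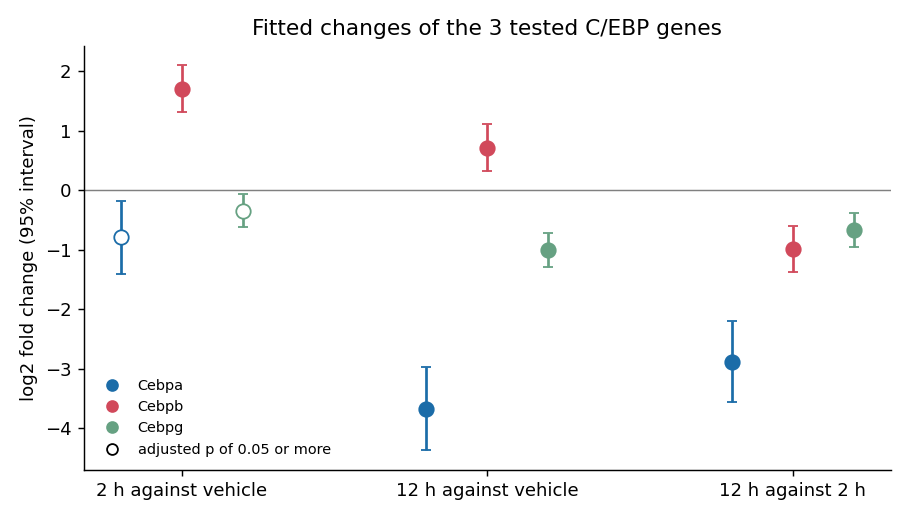
Fitted log2FC of Cebpa, Cebpb and Cebpg in the 3 comparisons, with 95% intervals from edgeR's quasi-likelihood fit and filled points at an adjusted p under 0.05. At 2 h Cebpb lies at 1.70 with Cebpa and Cebpg as open points below 0, and at 12 h Cebpa lies at -3.68, far below Cebpg at -1.01.

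To compare levels between genes, counts were divided by the exon length of each gene, which gives RPKM. The lengths are those of the GENCODE annotation, while the authors counted over UCSC exons, so RPKM and the shares below rest on lengths that may differ from the counted ones, for Cebpd in particular, which GENCODE lists as a pseudogene of 2 exons. In vehicle Cebpa was the highest, at 39.9 ± 8.05 RPKM (SD, n = 2), followed by Cebpg at 22.5 ± 1.53, Cebpb at 6.90 ± 0.823 and Cebpd at 0.794 ± 0.359 RPKM. These 4 levels did not overlap. At 2 h Cebpa at 23.0 ± 8.01 RPKM (SD, n = 2) could not be separated from Cebpb at 22.5 ± 2.83 or Cebpg at 17.7 ± 2.10 RPKM, since its libraries, at 28.7 and 17.4 RPKM, overlapped those of both. At 12 h Cebpb at 11.3 ± 0.749 and Cebpg at 11.2 ± 0.198 RPKM overlapped, and Cebpa at 3.12 ± 0.411 RPKM was below both and above Cebpd at 0.961 ± 0.312 RPKM.

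The RPKM of the 4 genes summed to 70.1 ± 7.71 (SD, n = 2) in vehicle, 63.7 ± 7.02 at 2 h and 26.6 ± 1.27 at 12 h. The vehicle and 2 h sums overlapped between the groups, but by replicate number the sum was lower at 2 h in both pairs, 68.7 against 75.5 in replicate 1 and 58.7 against 64.6 in replicate 2. Both 12 h sums lay below all others. Cebpa made up 60.4% and 53.0% of this sum in vehicle, 41.8% and 29.6% at 2 h, and 12.4% and 11.0% at 12 h. The share of Cebpb was 9.90% and 9.77% in vehicle, 29.8% and 41.7% at 2 h, and 43.2% and 42.1% at 12 h. Hence the share of Cebpb at 12 h was no lower than at 2 h, although its own level had dropped, while the level of Cebpa had dropped further. The share of Cebpg was 28.3% and 36.4% in vehicle, 27.9% and 27.6% at 2 h, and 40.1% and 44.0% at 12 h. The ratio of Cebpa to Cebpb RPKM was 6.10 and 5.42 in vehicle, 1.40 and 0.709 at 2 h, and 0.288 and 0.262 at 12 h. It was above 1 in both vehicle libraries, on either side of 1 at 2 h, and below 1 in both 12 h libraries.

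**Figure D3:**
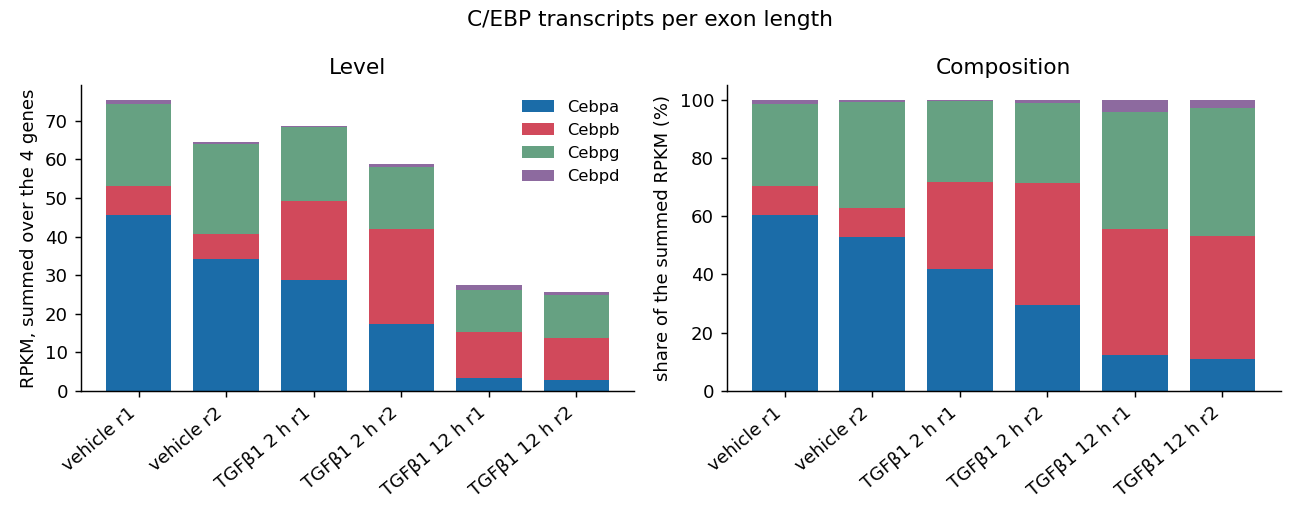
RPKM of the 4 C/EBP genes stacked for each library (left) and the same values as a percentage of their sum (right), with r1 and r2 for the replicates. The Cebpa segment shrinks from 60.4% and 53.0% in vehicle to 12.4% and 11.0% at 12 h, while Cebpb and Cebpg each reach at least 40.1% at 12 h.

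The sequences upstream of the start sites are shown for the 3 members that were tested, so that the promoters of the gene that rose and of the genes that fell can be read side by side. They are the 250 bases before the RefSeq start sites on GRCm38.p6, a later build than that of the counts, given 5′ to 3′ on the strand of the gene. Capitals mark the matches to a short list of motifs searched on both strands. The list held the C/EBP motif TTNNGNAA, the full CRE TGACGTCA and its first letters TGACG (so that each full CRE also counts as a match to TGACG), the AP-1 motif TGANTCA, the SMAD boxes CAGAC and GGCGCC, and TATAAA.
Cebpa, chr7:35119043-35119292, plus strand: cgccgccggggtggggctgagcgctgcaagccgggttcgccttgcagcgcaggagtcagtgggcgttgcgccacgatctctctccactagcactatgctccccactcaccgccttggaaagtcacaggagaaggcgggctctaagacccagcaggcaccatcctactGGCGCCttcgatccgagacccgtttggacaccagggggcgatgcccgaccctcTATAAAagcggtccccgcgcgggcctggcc
Cebpb, chr2:167688665-167688914, plus strand: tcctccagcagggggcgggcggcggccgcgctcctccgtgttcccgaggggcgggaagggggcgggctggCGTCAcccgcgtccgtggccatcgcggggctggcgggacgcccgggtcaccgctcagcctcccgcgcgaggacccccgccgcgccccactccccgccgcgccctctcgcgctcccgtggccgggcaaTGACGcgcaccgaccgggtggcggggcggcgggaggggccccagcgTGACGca
Cebpg, chr7:35056567-35056816, minus strand: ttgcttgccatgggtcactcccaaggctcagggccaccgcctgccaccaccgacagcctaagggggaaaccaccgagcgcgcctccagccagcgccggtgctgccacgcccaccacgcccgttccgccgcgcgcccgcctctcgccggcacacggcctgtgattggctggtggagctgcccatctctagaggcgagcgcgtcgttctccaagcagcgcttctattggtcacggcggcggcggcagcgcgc
The Cebpa sequence held GGCGCC, 78 to 83 bases before the start site, and TATAAA, 25 to 30 bases before it. Over the same windows of 250 bases before and 50 bases after 32851 RefSeq start sites, GGCGCC was found in 11.9% and TATAAA in 13.6%. The Cebpb sequence held TGACG 3 times, 3 to 7, 49 to 53 and 176 to 180 bases before the start site, the farthest on the opposite strand. TGACG was present in 20.8% of all windows. In the 50 bases after its start site, not printed, Cebpb also held GGCGCC and TATAAA. The Cebpg window held none of the motifs searched. TTNNGNAA, the full CRE, TGANTCA and CAGAC, found in 40.7%, 1.79%, 7.81% and 49.6% of all windows, were in none of these 3 windows. The 250 bases printed were rich in G and C, with 66.4% in Cebpa, 81.6% in Cebpb and 70.8% in Cebpg, against a median of 52.4% over the 250 bases before all 32851 start sites. A match is a description of the letters and not of a bound site.

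Cebpa and Cebpg are neighbors in the order of start sites, 62.8 kb apart with 0 counted genes between them, and both were called lower at 12 h. The genes up to 3 positions away from each member, members left out, were 18 genes, of which 14 were tested. At 2 h 3 of them were called higher and 0 lower, beside 9.91% and 5.25% of all tested genes, and at 12 h 5 were called higher and 0 lower, beside 21.8% and 21.5%. With the replicate block 6 were higher and 1 was lower at 2 h, beside 16.4% and 12.7% of all tested genes, and at 12 h 7 were higher and 1 was lower, beside 27.8% and 27.5%. From 2 h to 12 h 4 were called higher and 1 lower, or 4 and 2 with the block, beside 15.2% and 18.9% of all tested genes, or 23.3% and 25.2% with the block. Leaving out 1 library, 1 to 3 were called higher at 2 h (1 without vehicle replicate 1 or either 12 h library), 2 to 5 at 12 h (2 without 12 h replicate 2, and 3 without either vehicle library or 12 h replicate 1), and 0 to 4 from 2 h to 12 h (0 without either 12 h library). Chst8 passed the filter on low counts only through the 12 h libraries and was not tested without either of them. It is then missing from these counts, which is not a lost call. None of the tested genes around Cebpa and Cebpg was called lower at either time, also with the block.

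Snai1 encodes a zinc finger repressor of epithelial genes and a known target of TGFβ. Its start site lies at -151 kb from that of Cebpb, 3 positions away. It had 2 and 3 counts in vehicle, 181 and 206 at 2 h, and 242 and 232 at 12 h. The groups treated with TGFβ were far above vehicle, by a ratio of 63.9 at 2 h (95% counting interval 27.1 to 198) and 73.0 at 12 h (31.1 to 226), in which counting error alone is covered. Unlike Cebpb, Snai1 did not fall between 2 h and 12 h (log2FC 0.20 ± 0.19, SE, edgeR, adjusted p = 0.450). The closest tested genes to Cebpb, Ube2v1 and Tmem189, were not called at either time, with log2FC of 0.28 and 0.23 at 2 h, but Tmem189 passed at 12 h with the replicate block (0.48, adjusted p = 0.0130, against 0.47 and 0.136 without it). A530013C23Rik, which starts 2.26 kb from Cebpb on the same strand, had 15 to 33 counts and was not tested. Ripor3, on the other side of Ptpn1, was not tested either, with 8 and 5 counts in vehicle, 23 and 9 at 2 h, and 0 in both 12 h libraries. Ptpn1, a tyrosine phosphatase gene further on, had a log2FC of 0.39 at 2 h that did not pass (edgeR, adjusted p = 0.0503), but passed with the replicate block (adjusted p = 0.0168).

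On chromosome 7, Chst8, which encodes a sulfotransferase and starts at -307 kb from Cebpa, moved in the direction opposite to Cebpa. It had 2 counts in both vehicle libraries, 23 and 21 at 2 h, and 85 and 70 at 12 h. The ratio to vehicle was 9.08 at 2 h (95% counting interval 3.31 to 34.8) and 29.8 at 12 h (11.4 to 111). Chst8 passed the filter on low counts only through the 12 h libraries, at 3.70 and 3.60 CPM, against 1.16 and 1.06 CPM at 2 h. Without either 12 h library it was not tested. The 2 h call was lost without vehicle replicate 1, with a log2FC of 3.06 against 3.12 with all libraries. Pepd, a peptidase gene that lies next to Cebpg, had a log2FC of 0.32 at 2 h and 0.30 at 12 h (edgeR, adjusted p = 0.1003 and 0.0625), and both passed with the replicate block (adjusted p = 0.0366 and 0.0274). Kctd15, further away, rose with a log2FC of 1.83 at 12 h (edgeR, adjusted p = 0.00143). At 2 h its log2FC of 0.86 did not pass (adjusted p = 0.0672), but passed with the block (adjusted p = 0.0331). Slc7a10 and Lrp3, on the other side of Cebpa, had at most 1 count in any library, and Gpatch1 beyond them was not called (log2FC 0.11 at 2 h and 0.30 at 12 h, edgeR, adjusted p = 0.723 and 0.224).

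Around Cebpd, Pkp2, a desmosomal gene, rose by a log2FC of 0.53 at 2 h and 0.46 at 12 h (edgeR, adjusted p = 0.0315 and 0.0208). The 2 h call was lost in 5 of 6 analyses that left out 1 library, all except that without 2 h replicate 1, and the 12 h call in 3, those without either vehicle library or without 12 h replicate 2. In these analyses the log2FC stayed between 0.44 and 0.59 at 2 h and between 0.33 and 0.57 at 12 h. Both calls were also lost without TMM factors (0.42 and 0.33, adjusted p = 0.0698 and 0.0741), and that at 2 h with the 12 h libraries left out of the fit (0.52, adjusted p = 0.0582). Yars2, a mitochondrial tRNA synthetase gene, rose by 0.42 at 12 h (edgeR, adjusted p = 0.0257), a call lost without any of the 4 vehicle and 12 h libraries (log2FC 0.39 to 0.45) and without TMM factors (0.29, adjusted p = 0.0929). Prkdc, Mcm4, Mzt2 and Spidr were not called against vehicle. With the block, Prkdc was called lower at 2 h (-0.36, adjusted p = 0.0209) and Mcm4 lower at 12 h (-0.53, adjusted p = 0.0368). They also passed without 2 h replicate 1 (-0.44, adjusted p = 0.0473) and without vehicle replicate 1 (-0.90, adjusted p = 0.0294), respectively.

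**Figure D4:**
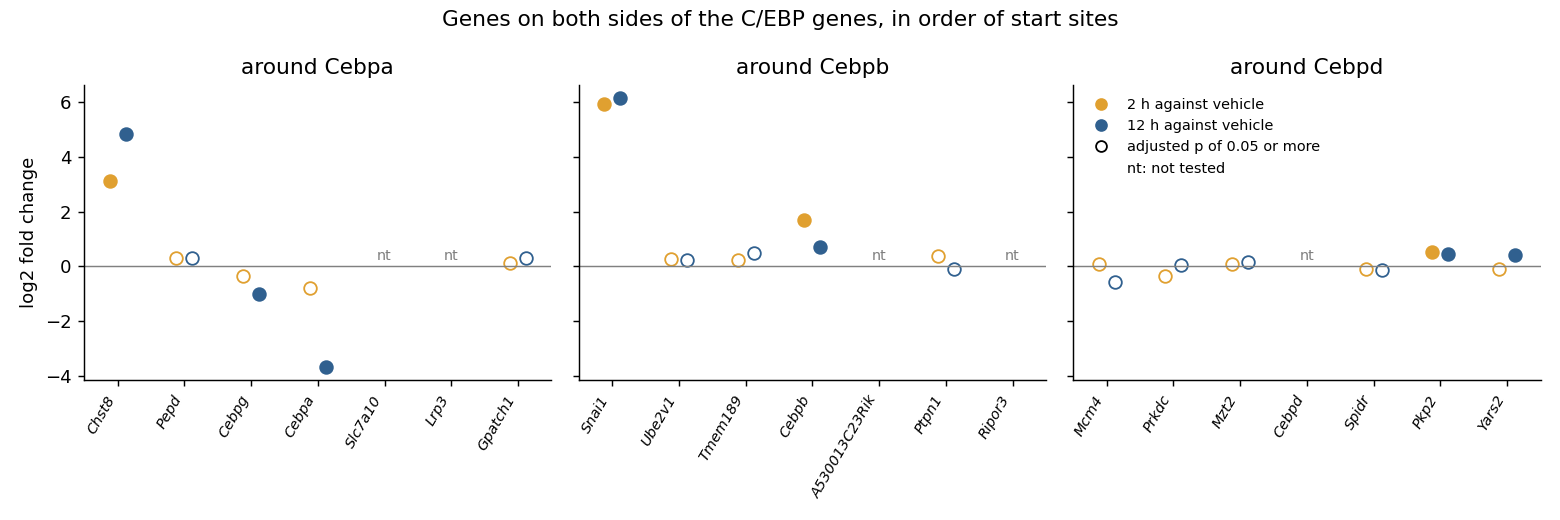
log2FC at 2 h (yellow) and 12 h (blue) against vehicle of the genes up to 3 positions from Cebpa, Cebpb and Cebpd in the order of start sites, spaced by order and not by distance, with filled points at an adjusted p under 0.05 and nt for genes that were not tested. Cebpa and Cebpg are the genes below 0 in the left panel, and Chst8 and Snai1 stand far above all other genes.

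The genes most like each tested member over the 6 libraries were found by the Euclidean distance between their log2 CPM values, each centered on its own mean, among 9030 genes with at least 10 CPM on average. The closest to Cebpa were Fhl1, a LIM domain gene (distance 0.300), Acnat1, an acyltransferase gene (0.320), and Pik3c2g, a lipid kinase gene (0.412). Acnat1 has a closely related copy in the genome, so its counts are less certain. Fhl1 had 47.1 and 32.9 CPM in vehicle, 35.0 and 20.6 CPM at 2 h, and 3.79 and 3.19 CPM at 12 h. As for Cebpa, replicate 1 was above replicate 2 at each time. At 2 h Fhl1, Acnat1 and Pik3c2g did not pass without the replicate block (edgeR, adjusted p = 0.273, 0.138 and 0.136) and passed with it (log2FC -0.54, -0.93 and -0.55, adjusted p = 0.0162, 0.00290 and 0.02002).

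The closest to Cebpb were Runx2, a transcription factor gene of bone (0.336), Jag2, which encodes a Notch ligand (0.374), and Rreb1, a zinc finger gene (0.381). Runx2 had 27.7 and 23.4 CPM in vehicle, 73.1 and 69.5 CPM at 2 h, and 43.9 and 35.1 CPM at 12 h. Its peak at 2 h and partial return by 12 h had the shape of those of Cebpb. Its 12 h call against vehicle (log2FC 0.63) was lost without vehicle replicate 2 or 12 h replicate 1, that of Jag2 (0.74) without vehicle replicate 2 or 12 h replicate 2, and that of Rreb1 (0.48) without vehicle replicate 1 or 12 h replicate 1. The lowest log2FC in these analyses were 0.44, 0.63 and 0.39. The closest to Cebpg were Adi1, an enzyme gene of methionine salvage (0.152), Emc2, a gene of the membrane protein insertion complex (0.167), and Ccdc181 (0.169). Emc2 passed at 2 h with the block (log2FC -0.34, adjusted p = 0.0274) and not without it (adjusted p = 0.0659). Because these genes were chosen for likeness, their own changes add no support to those of the members.

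The next lists cover genes that work with the C/EBP proteins or respond to them. Of 11 partner and related genes, 7 were tested. All but Cebpz encode leucine zipper factors, and Cebpz, a gene for a CCAAT-binding protein, shares the name alone. At 2 h 1 was called higher and 2 lower, beside 9.91% and 5.25% of all tested genes, and at 12 h 2 were called higher and 3 lower, beside 21.8% and 21.5%. At 2 h 1 of the 2 called lower was Tef, a relative of Dbp (log2FC -0.80, edgeR, adjusted p = 0.0405), a call lost in 5 of 6 analyses without 1 library, all except that without 2 h replicate 1 (-1.12 to -0.55), and with the 12 h libraries left out of the fit (-0.81, adjusted p = 0.109). The number called lower at 2 h was 1 without any of the vehicle or 12 h libraries. Cebpz was 1 of the 2 called higher at 12 h (log2FC 0.51, edgeR, adjusted p = 0.0248), a call lost without any of the 4 vehicle and 12 h libraries (0.46 to 0.56). With the replicate block, 1 gene of the list was called higher and 3 lower at 2 h, beside 16.4% and 12.7% of all tested genes. At 12 h 2 were called higher and 4 lower with it, beside 27.8% and 27.5%. There the additional call was Tef (log2FC -0.45, edgeR, adjusted p = 0.0195, against -0.47 and 0.0969 without the block). The median log2FC of the list was -0.15 at 2 h and -0.47 at 12 h, against -0.01 and 0.02 over all tested genes. Nfil3, which encodes a repressor of this class, had 16.5 and 18.1 CPM in vehicle, 81.9 and 61.9 CPM at 2 h, and 47.6 and 54.0 CPM at 12 h, and rose at both times (log2FC 2.06 and 1.55, edgeR, adjusted p = 0.000823 and 0.000583). Dbp, a circadian activator that competes with Nfil3 for sites, fell from 14.3 and 12.5 CPM to 3.90 and 3.48 CPM at 2 h and to 1.87 and 2.57 CPM at 12 h (log2FC -1.86 and -2.60, edgeR, adjusted p = 0.00323 and 0.000299). The 2 genes thus went in opposite directions with no overlap between treated and vehicle libraries.

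Ddit3, also known as CHOP, encodes a C/EBP relative that forms dimers with the other members. It had 28.4 and 30.8 CPM in vehicle, 14.2 and 20.9 CPM at 2 h, and 8.06 and 7.91 CPM at 12 h. It fell at 12 h (log2FC -1.89 ± 0.21, SE, edgeR, adjusted p = 0.000634). At 2 h the log2FC was -0.75 (edgeR, adjusted p = 0.0502), which passed with the replicate block (-0.77, adjusted p = 0.00686) and without 2 h replicate 2 (-1.06, adjusted p = 0.00960). Atf4, whose protein pairs with C/EBPγ, had 313 to 359 CPM in all 6 libraries and was not called (log2FC 0.01 at 2 h and 0.06 at 12 h). Between 2 h and 12 h, 1 gene of this list was called higher and 2 lower, and with the block 1 higher and 4 lower, beside 15.2% and 18.9% of all tested genes, or 23.3% and 25.2% with the block. The gene called higher was Cebpz (log2FC 0.67, edgeR, adjusted p = 0.0123), a call lost without either 12 h library (0.49 to 0.87), where 1 gene was called lower. Nfil3 and Dbp were the additional calls (adjusted p = 0.0187 and 0.0290 with the block).

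C/EBP proteins are also controlled after translation. Of 10 genes for regulators of this kind, 9 were tested, and 2 were called higher and 0 lower at both 2 h and 12 h, with medians of 0.07 and 0.08. Of all tested genes 9.91% were called higher and 5.25% lower at 2 h, and 21.8% and 21.5% at 12 h, so the share called higher at 12 h was near that of all genes. Trib1 encodes a pseudokinase that brings C/EBPα to a ubiquitin ligase for degradation. It had 21.8 and 18.5 CPM in vehicle, 50.4 and 45.4 CPM at 2 h, and 27.8 and 31.0 CPM at 12 h. It rose at 2 h (log2FC 1.24, edgeR, adjusted p = 0.00243) and was above vehicle at 12 h (0.54, adjusted p = 0.0198), a call lost without vehicle replicate 2, 12 h replicate 1 or 12 h replicate 2 (log2FC not below 0.42). The other was Fbxw7, a ubiquitin ligase gene, with a log2FC of 0.82 at 2 h and 0.69 at 12 h (edgeR, adjusted p = 0.00734 and 0.00478). These calls were lost without vehicle replicate 2 (0.76, adjusted p = 0.0604) and without 12 h replicate 1 (0.62, adjusted p = 0.0502), respectively, so that the values moved little. Rfwd2, the ligase gene that works with Trib1, had 26.6 to 33.1 CPM in all libraries and was not called.

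The IL6 family signals through STAT3, which is known to activate Cebpb and Cebpd. Of 15 genes 11 were tested, of which 4 were called higher and 1 lower at 2 h and, at 12 h, 4 in each direction, with medians of 0.10 and 0.01. The shares of all tested genes were 9.91% higher and 5.25% lower at 2 h, and 21.8% and 21.5% at 12 h. In all 10 genes were called in at least 1 of these comparisons, as were 46.9% of all tested genes. The count was 6 without vehicle replicate 1, vehicle replicate 2 or 12 h replicate 2 and 4 without 12 h replicate 1, and the share of all tested genes fell as well, to 31.1%, 31.7%, 28.0% and 28.6%. Among the ligands, Il11 had 2 and 1 counts in vehicle, 12 and 14 at 2 h, and 170 and 121 at 12 h, a ratio to vehicle of 74.7 at 12 h (95% counting interval 25.3 to 364). At 2 h the ratio was 7.15 (2.19 to 36.9), and that call was lost without either vehicle library. The call was also lost with the 12 h libraries left out of the fit (edgeR, adjusted p = 0.0877). Il11 passed the filter on low counts only through the 12 h libraries, at 7.41 and 6.22 CPM, and was not tested without either of them. Lif stood at 12.4 and 14.9 CPM in vehicle, 11.5 and 16.6 CPM at 2 h, and 54.0 and 63.6 CPM at 12 h, so that the 12 h libraries alone were high (log2FC 2.11, edgeR, adjusted p = 0.000436). Il6, below the filter, had 0 and 1 counts in vehicle, 5 and 1 at 2 h, and 18 and 16 at 12 h, so that its 12 h libraries were the highest as well, by a ratio to vehicle of 26.2 (95% counting interval 4.39 to 1065). With the filter on low counts dropped it was called higher at 12 h (edgeR, adjusted p = 0.0103). Osm had at most 1 count in any library.

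Of the 5 receptor genes of the list, Lifr and Osmr had at most 2 counts in any library and were not tested. The others, named after their values had been seen, are Il6st, the common signaling chain (log2FC -0.61 at 12 h), Il6ra (-0.93) and Il11ra1 (-0.75), all past the threshold (edgeR, adjusted p = 0.00288, 0.00927 and 0.0179). The call of Il6ra was lost without vehicle replicate 1 or 12 h replicate 1 (log2FC -1.12 to -0.73 over the analyses without 1 library), and that of Il11ra1 without either vehicle library or 12 h replicate 1 (-0.98 to -0.56). Stat3 itself was higher at 2 h (0.65, adjusted p = 0.0190) and not called at 12 h (0.10, adjusted p = 0.551). Of the targets of STAT3, Pim1, a kinase gene, had 4.30 and 5.10 CPM in vehicle, 46.0 and 39.7 CPM at 2 h, and 61.6 and 60.6 CPM at 12 h, and rose at both times (log2FC 3.19 and 3.70, edgeR, adjusted p = 0.000160 and 3.43e-05). Bcl3, a regulator of NF-κB, had 16.7 and 18.4 CPM in vehicle, 21.5 and 24.0 CPM at 2 h, and 5.23 and 5.55 CPM at 12 h, and fell at 12 h (log2FC -1.70, edgeR, adjusted p = 0.000306). Socs3, the feedback inhibitor of the pathway, was lower at 2 h (-0.59, adjusted p = 0.0253). The 2 h calls of Stat3 and Socs3 were lost without any of the vehicle or 12 h libraries, that of Socs3 also without 2 h replicate 1, with log2FC of 0.50 to 0.77 and -0.69 to -0.51. Both were also lost with the 12 h libraries left out of the fit (adjusted p = 0.0672 and 0.0659).

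Of 20 acute-phase and inflammatory genes known as targets of C/EBP proteins, 11 were tested, and most of these were called lower at 12 h when all libraries were used. At 2 h 1 was called higher and 3 lower, beside 9.91% and 5.25% of all tested genes, or 1 and 6 with the replicate block, beside 16.4% and 12.7%. At 12 h 1 was called higher and 9 lower, beside 21.8% and 21.5% of all tested genes. Without 12 h replicate 1 the number called lower at 12 h was 5, beside 13.5% of all tested genes, as Cp, Saa3, Ccl2 and Cd14 missed the threshold (edgeR, adjusted p = 0.0740, 0.0650, 0.172 and 0.0604). Without 2 h replicate 1 the number called lower at 2 h was 5, beside 8.61% of all tested genes. Their median log2FC was -0.53 at 2 h and -2.94 at 12 h, and the latter was the same with Saa3 set to its bound. No set test was made, and genes of the list that did not pass the filter, such as Saa1, Saa2, Csf3 and Nos2 with 0 counts in every library, do not enter these counts.

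Hp, which encodes the hemoglobin-binding protein haptoglobin, had 34.7 and 20.5 CPM in vehicle, 26.5 and 11.9 CPM at 2 h, and 0.262 and 0.103 CPM at 12 h. It fell at 12 h (log2FC -7.15, edgeR, adjusted p = 0.000331) and was not called at 2 h (-0.53, adjusted p = 0.448), but passed there with the replicate block (-0.58, adjusted p = 0.0188) and without 2 h replicate 1 (-1.24, adjusted p = 0.0466). Saa3, a serum amyloid gene, had 88 and 31 counts in vehicle, 80 and 15 at 2 h, and 0 in both 12 h libraries, so it was at least 51.5-fold lower at 12 h, computed against 3 counts over both libraries. The call (edgeR, adjusted p = 0.0124) was lost without either 12 h library (adjusted p up to 0.0650). For Hp and Saa3, as for Cebpa, replicate 1 was above replicate 2 in vehicle and at 2 h.

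The chemokine genes Cxcl5 and Ccl20 were called lower at both times. Cxcl5 had 401 and 157 CPM in vehicle, 39.6 and 14.6 CPM at 2 h, and 2.14 and 1.80 CPM at 12 h (log2FC -3.36 and -7.14, edgeR, adjusted p = 0.0123 and 0.000514). Its 2 h log2FC ranged from -4.28 to -2.54 when 1 library was left out, and the call was lost with the 12 h libraries left out of the fit (-3.37, adjusted p = 0.0506). Ccl20 had 130 and 80 counts in vehicle, 12 in both 2 h libraries, and 0 and 1 at 12 h. It was 10.6-fold lower at 2 h (95% counting interval 6.93 to 16.9) and, from 1 count, 273-fold lower at 12 h (48.4 to 10818). Unlike these, Ptgs2, the inducible cyclooxygenase gene, was the 1 gene of the list called higher at 12 h, at 59.8 and 79.8 CPM against 11.4 and 12.0 CPM in vehicle (log2FC 2.58, edgeR, adjusted p = 0.000124), and Ccl2, also a chemokine gene, was the 1 gene called higher at 2 h (0.88, adjusted p = 0.00839), a call lost without either vehicle library (0.85 to 0.90, adjusted p up to 0.0606). At 12 h Ccl2 was 1 of the 9 genes called lower (-0.44, edgeR, adjusted p = 0.0397), a call lost without either vehicle library or 12 h replicate 1 (-0.66 to -0.28 over the analyses without 1 library). At 2 h Ptgs2 had a log2FC of -0.67 (adjusted p = 0.0540), and passed with the block (-0.68, adjusted p = 0.00789). Ptgs2 and Ccl2 were named after their values had been seen.

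C/EBPα and C/EBPβ are best known from fat cell differentiation. Of 12 adipogenic genes 4 were tested, none was called at 2 h by edgeR, also with the replicate block, where 9.91% and 5.25% of all tested genes were called without the block and 16.4% and 12.7% with it, and 2 were called lower and 0 higher at 12 h, beside 21.5% and 21.8% of all tested genes, with a median of -0.90. Scd1, a fatty acid desaturase gene, had 496 and 489 CPM in vehicle, 521 and 427 CPM at 2 h, and 122 and 117 CPM at 12 h (log2FC -2.05 at 12 h, edgeR, adjusted p = 8.45e-05). Klf5, a transcription factor gene of early adipogenesis that is also expressed in epithelia, fell at 12 h (-1.27, adjusted p = 0.00203). Adipoq, Plin1, Lep, Lpl and Pck1 had at most 1 count in any library. Of 11 mammary differentiation genes, only Stat5a and Stat5b passed the filter. The caseins, Wap, Lalba, Prlr and Pgr had 0 counts in all 6 libraries. At 12 h Stat5a was lower (-0.68, adjusted p = 0.0125) and Stat5b higher (0.58, adjusted p = 0.0185). The call of Stat5a was lost without vehicle replicate 1 or 12 h replicate 1, and that of Stat5b without vehicle replicate 1 or 12 h replicate 2, so that 0 to 2 of them were called. Neither was called at 2 h by edgeR, and Stat5b was with the block (0.43, adjusted p = 0.0281).

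Of 14 genes of the ATF4 stress response, in which C/EBPγ takes part, all were tested. At 2 h 3 were called higher and 1 lower, beside 9.91% and 5.25% of all tested genes, or 6 and 2 with the replicate block, beside 16.4% and 12.7%. At 12 h 6 were called higher and 5 lower, beside 21.8% and 21.5%. Without 2 h replicate 1, 5 were called higher at 2 h, beside 11.3% of all tested genes, and without 2 h replicate 2, 2 were called lower, beside 3.46%. The medians were 0.14 and 0.05, so the list had no common direction. Psat1, an enzyme gene of serine synthesis, had 433 and 483 CPM in vehicle, 377 and 394 CPM at 2 h, and 52.9 and 65.7 CPM at 12 h, and fell at 12 h (log2FC -2.95, edgeR, adjusted p = 4.68e-05). Nupr1, a stress-induced chromatin protein gene, had 22.0 and 32.5 CPM in vehicle, 30.8 and 51.0 CPM at 2 h, and 201 and 188 CPM at 12 h (log2FC 2.84 at 12 h, edgeR, adjusted p = 0.000433). At 2 h it was not called (0.59, adjusted p = 0.210), but passed with the block (0.58, adjusted p = 0.0421) and without 2 h replicate 1 (0.89, adjusted p = 0.0268). Atf3, a stress-induced leucine zipper factor gene, had 9.66 and 12.4 CPM in vehicle, 51.3 and 65.8 CPM at 2 h, and 31.6 and 28.7 CPM at 12 h, highest at 2 h as Cebpb was (log2FC 2.41 and 1.45, edgeR, adjusted p = 0.000725 and 0.00118).

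**Figure D5:**
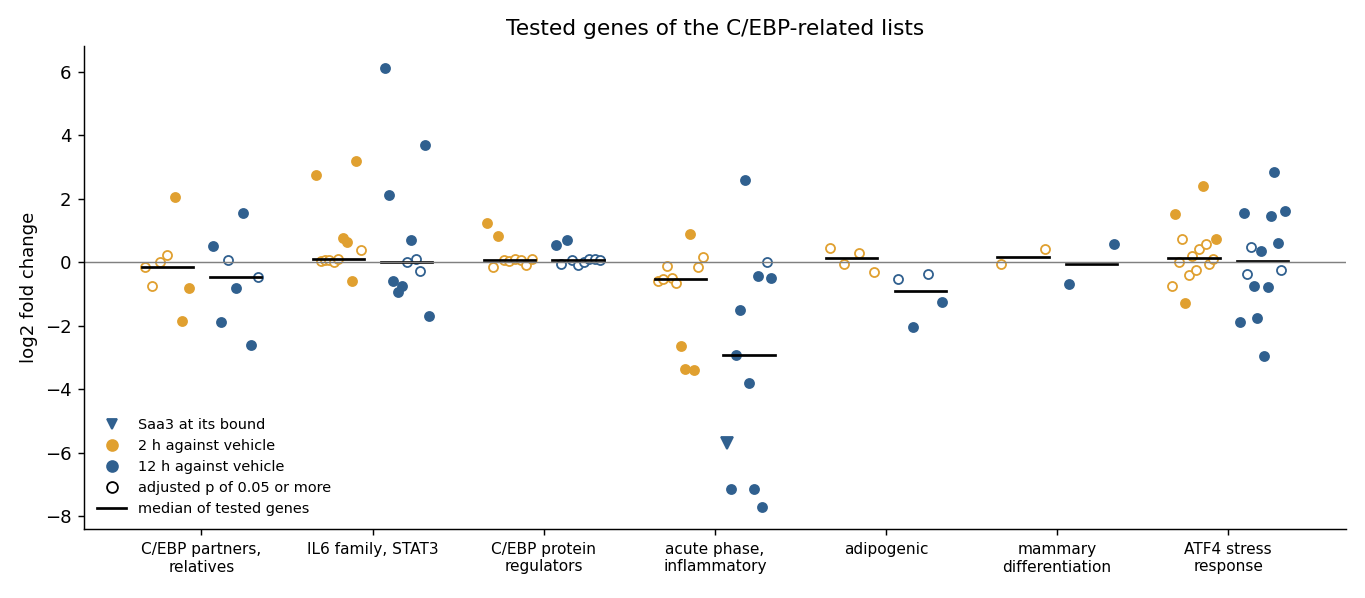
log2FC against vehicle at 2 h (yellow) and 12 h (blue) of the tested genes of each list, with filled points at an adjusted p under 0.05, black lines for the median and a triangle for Saa3 at its bound. The acute-phase and inflammatory list reaches down to -7.73 at 12 h with a median of -2.94, while the medians of the IL6 family, the regulators of C/EBP proteins and the ATF4 response stay near 0.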

How the data were processed

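RNA of NMuMG cells was measured in 3 groups of 2 libraries. According to the methods of the study, the authors filtered the single-end reads of 50 bases, aligned them to mm9 with subjunc of Rsubread, kept unique alignments, removed duplicates with SAMtools 0.1.19 and counted reads over exons of UCSC genes with featureCounts, using strand. The deposited values are raw counts of 21240 genes, without normalization. Although duplicates are said to be removed, 803 to 1418 genes per library had more counts than exon bases, so counts are not limited to 1 read per position.

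Counts were tested in R 4.3.3 with edgeR 4.0.16, using the quasi-likelihood test, TMM factors, a filter of at least 2 CPM in 2 or more libraries, 1 fit of the 3 groups and Benjamini-Hochberg adjustment over 11080 genes within each comparison. A gene was called at an adjusted p under 0.05. The SE is the absolute log2FC divided by the square root of F. The study used limma-voom with the same filter, here an alternative (limma 3.58.1) beside DESeq2 1.42.0, other scalings and filters, a prior count of 2, the 2 compared groups alone, a replicate block, and leaving out each library. Tests are two-sided, and with 2 replicates, p-values measure only the spread between these samples. The method was also run on simulated counts for 2 h against vehicle. These had the same spread for every gene and no effect of the replicate number. That run thus does not cover the correlation of same-numbered libraries given below.

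Deviations of same-numbered libraries from their group means correlated by 0.708, 0.263 and 0.392 between the 3 pairs of groups over 11080 genes. The numbers were taken as pairing the libraries from this check alone, since the labels do not say what a number marks. Blocked values are given beside most results on named genes whose call they change.

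Exon lengths and positions were read from the GENCODE annotation of NCBIM37 (mm9), with 20600 genes placed (18958 by symbol and 1642 by synonym). The members and gene lists were chosen with earlier results of these data known. Of each list, up to 4 genes with the largest absolute log2FC against vehicle among those called with an absolute log2FC above 1 are named, with the genes up to 3 positions from each member, the 3 most similar genes per tested member and genes of the cell type markers. Distances between genes used log2(CPM + 0.25). Other genes were named after their values had been seen. Ratios with few counts carry exact binomial intervals, which cover counting error only.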

Additional observations from a re-analysis of the deposited data

Results flagged for a closer look

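The levels after TGFβ treatment differed between 2 h and 12 h, as tested by edgeR's quasi-likelihood comparison of the 12 h with the 2 h libraries (n = 2 per group, adjusted p under 0.05), for each of the 3 tested members. The difference was a log2FC of -2.88 for Cebpa, -0.99 for Cebpb and -0.66 for Cebpg. Because 12 h libraries also spent longer without serum, the time and the treatment cannot be told apart.

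Among the genes of the lists, the difference was positive for Il11 (3.36), Lif (2.07), Pim1 (0.51) and Nupr1 (2.25). It was negative for Ddit3 (-1.14), Bcl3 (-2.08), Trib1 (-0.70), Hp (-6.63), Cxcl5 (-3.77), Ccl20 (-4.34), Scd1 (-1.99), Klf5 (-0.96), Psat1 (-2.70) and Atf3 (-0.96). For Saa3 the fitted value of -8.52 depends on the prior count, since both 12 h libraries had 0 counts. Among the neighbors it was 1.71 for Chst8, -0.47 for Ptpn1, 0.42 for Prkdc, 0.52 for Yars2 and 0.97 for Kctd15. Among the genes chosen for their likeness to a member it was -2.99 for Fhl1, -2.77 for Acnat1, -3.05 for Pik3c2g, -0.85 for Runx2, -0.82 for Jag2, -1.15 for Rreb1, -0.70 for Adi1, -0.61 for Emc2 and -0.67 for Ccdc181.

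The differences of Il11 and Chst8 were not tested without either 12 h library, nor that of Ccl20 without either vehicle library, where they fell below the filter on low counts. Of the 32 differences, many missed the threshold in at least 1 analysis without 1 library. Those of Cebpg, Ddit3, Pim1, Trib1, Saa3, Cxcl5, Klf5, Atf3, Ptpn1, Prkdc, Yars2, Kctd15, Adi1 and Ccdc181 were lost without either 12 h library, those of Ccl20 (-6.54 to -3.40) and Jag2 without 12 h replicate 1, and that of Runx2 without 12 h replicate 2. Those of Pim1 and Prkdc were also lost without 2 h replicate 2, and those of Kctd15 and Ccdc181 without 2 h replicate 1.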

How the results depend on the processing

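Of 135 alternative log2FC values of Cebpa, Cebpb and Cebpg, 0 changed direction and 123 kept their side of the threshold. At 2 h, Cebpa passed with the replicate block (log2FC -0.82), without TMM factors (-0.91, adjusted p = 0.0466) and with DESeq2 (-0.81, adjusted p = 0.0228), and ranged from -1.22 to -0.48 when 1 library was left out. At 2 h, Cebpg passed with the replicate block (-0.35) and without TMM factors (-0.46, adjusted p = 0.0398), and ranged from -0.49 to -0.23 when 1 library was left out. Over all alternatives the adjusted p was 0.000945 to 0.354 for Cebpa and 0.0366 to 0.354 for Cebpg. Thus 3 members were called at 2 h without TMM factors and with the block, 2 with DESeq2, and 1 to 3 when 1 library was left out. Of all tested genes 7.71% were then called higher and 8.80% lower without TMM factors, 11.7% and 7.17% with DESeq2, and 11.3% and 8.61% without 2 h replicate 1, where 3 members were called. Leaving out 1 library, Cebpb at 12 h ranged from 0.59 to 0.84 and Cebpg from 2 h to 12 h from -0.78 to -0.54, and both missed the threshold in some of these analyses. The number of genes called in at least 1 comparison with vehicle was then 4 to 10 for the IL6 family and 0 to 2 for the mammary genes, as fewer samples remained. Of 131 calls among the named and listed genes, 56 were lost in at least 1 such analysis and 0 changed sign. The calls of Il11 and Chst8 were not tested without either 12 h library, nor those of Ccl20 without either vehicle library. Each of these calls was thus tested in 4 such analyses. A lone library left in a group is assumed to vary like the other groups. The cause of the changes between analyses was not tested. The block changed no call of a member at 12 h or between 2 h and 12 h. Over all tested genes it moved the calls at 2 h from 1098 higher and 582 lower to 1813 and 1409. Using the longest transcript for length, the share of Cebpb was 9.64% in vehicle and 41.5% at 12 h and that of Cebpg 29.0% at 2 h. Depth limits Cebpd, whose highest library held 32 counts.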
